A study of Gallus gallus with 20 samples.

Results

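The simple-epithelium alpha-keratins are KRT7, KRT8, KRT18, KRT19 and KRT20. They were taken by name from the deposited keratin table, with earlier results of these data known. All 5 were present, among 33 alpha-keratins, 180 keratins and 16290 genes, and all 5 passed the filter on low values. The table and every level below give RPKM, reads normalised for the length of the gene model and for the mapped reads of the library, so levels of different genes are compared per length.

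Keratin filaments are built from pairs, each of a type I (acidic) and a type II (basic) chain. In mammals, KRT8 (type II) and KRT18 (type I) form the pair of single-layered epithelia and the first keratin filaments of the embryo. KRT7 (type II) is typical of ducts and glands, KRT19 (type I) of many simple epithelia and some progenitor cells, and KRT20 (type I) of gut epithelium and Merkel cells. Stratified epidermis instead uses KRT5 with KRT14 in its basal layer and KRT1 with KRT10 above it, while the periderm, the flat layer that covers embryonic epidermis and is later shed, carries simple-epithelium keratins in mammals. These roles are known from human and mouse. Beta-keratins are the hard structural proteins of scales, claws and feathers in birds and reptiles, and are not related to the KRT family.

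The tissue came from White Leghorn chicken embryos on embryonic day 16. Control scutate scales, the large plates on the front of the foot, carried GFP in RCAS, a replication-competent avian retrovirus (n = 2). In 6 other groups the scales carried an RCAS construct with beta-catenin (n = 2), through which Wnt signals act, Grem1 (n = 2), which binds and blocks secreted BMP ligands, the transcription factors Sox2 (n = 2) or Sox18 (n = 3), Spry2 (n = 2), which dampens receptor tyrosine kinase signals, or Zic1-deltaC (n = 3), a construct the labels name without describing it. Virus had been injected on embryonic day 3 into amniotic cavity and hind limb, or plasmid had been injected and electroporated, and the labels do not say which was done for which library. The labels limit expression of the constructs to no cell type. Another group of scales came from embryos given retinoic acid (RA) on embryonic day 9, with no vehicle control (n = 2), and normal feather was dissected as dorsal skin (n = 2). Neither RA scale nor feather has a virus on its labels, so both differ from GFP scale in infection too, and feather also in body site. The constructs were not looked up in the data, because the files do not pair the Ensembl identifiers of other genes with symbols.

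The GFP scale and feather libraries matched their tissue labels in the beta-keratins. Claw keratins summed to between 35110.4 and 41691.4 RPKM in GFP scale and to 38.9 and 49.9 RPKM in feather, while feather keratins summed to at least 462430 RPKM in feather and at most 18785.5 RPKM in GFP scale. Feather keratins were also high in some manipulated scales. They summed to 209635 and 211230 RPKM with RA, beside at most 14939.6 for claw and 11153.3 for scale keratins. With Sox18 they summed to between 129279 and 195378 RPKM, beside at most 9461.3 for claw and 12153.8 for scale keratins. All keratins together took from 4.39% of the summed RPKM, in a Sox2 library, to 74.4%, in a feather library. RPKM is relative to the whole library. The median log2 change from GFP scale over all genes was -0.93 in feather, -0.31 with RA, -0.20 with Sox18, 0.11 with Spry2 and 0.28 with Sox2, and between -0.08 and 0.05 in the other groups. The part of the keratin share in these medians was not tested. Changes are as deposited unless said otherwise, and where it bears on the result also after median-ratio scaling, in which a library is divided by the median, over genes, of its ratio to the geometric mean library, and all of these medians came within 0.02 of 0. The share of higher genes among those called against GFP scale moved with it, from 10.96% to 50.2% in feather, 13.8% to 54.1% with RA, 34.4% to 53.5% with beta-catenin, 41.9% to 53.0% with Grem1, 82.3% to 45.6% with Sox2, 22.9% to 49.4% with Sox18, 70.7% to 50.8% with Spry2 and 59.97% to 50.5% with Zic1-deltaC. GFP replicate 1 stood apart: 88 genes, 0 of them keratins, had at least 1 RPKM there and over 4 times the level of every other library, against 0 to 2 such genes in each other library. A first set of 25 genes was at 1 RPKM or more in each of 6 libraries, those with beta-catenin, Grem1 or Spry2, and listed at 0 in the other 14. A second set of 25 was high in the 8 GFP, RA, beta-catenin and Spry2 libraries, summing to at least 851 RPKM, and summed to at most 9.0 RPKM in the other 12. Both sets were picked for these divisions, so their levels only describe the split. No count is given of genes that divide other combinations of groups. Read totals are not in the files, so depth is unknown. Whether replicates were separate embryos is not on the labels, so the p-values cover the spread among these samples alone, which may be technical.

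KRT8 was by far the most abundant of the 5 genes. It lay between 100 and 311.4 RPKM over the 20 libraries, and made up between 73.5% and 96.1% of the summed level of the 5. The other 4 were low: KRT18 had a median over libraries of 2.55 RPKM and a highest value of 21.3, KRT7 a median of 1.75 and a highest value of 32.2, KRT19 a median of 3.80 and a highest value of 62.6, and KRT20 a median of 2.55 and a highest value of 6.4. KRT8 also varied least. Between the highest and the lowest group mean KRT8 spanned 2.51-fold, against 9.08-fold for KRT20, 18.6-fold for KRT18, 23.7-fold for KRT19 and 28.9-fold for KRT7. After scaling KRT8 spanned 4.24-fold and KRT18 the most, 45.6-fold, with 10.5-fold for KRT20, 19.0-fold for KRT7 and 23.0-fold for KRT19. Among the 33 alpha-keratins KRT8 ranked between 7th and 15th in every library, and the other 4 between 19th and 33rd.

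**Figure D1:**
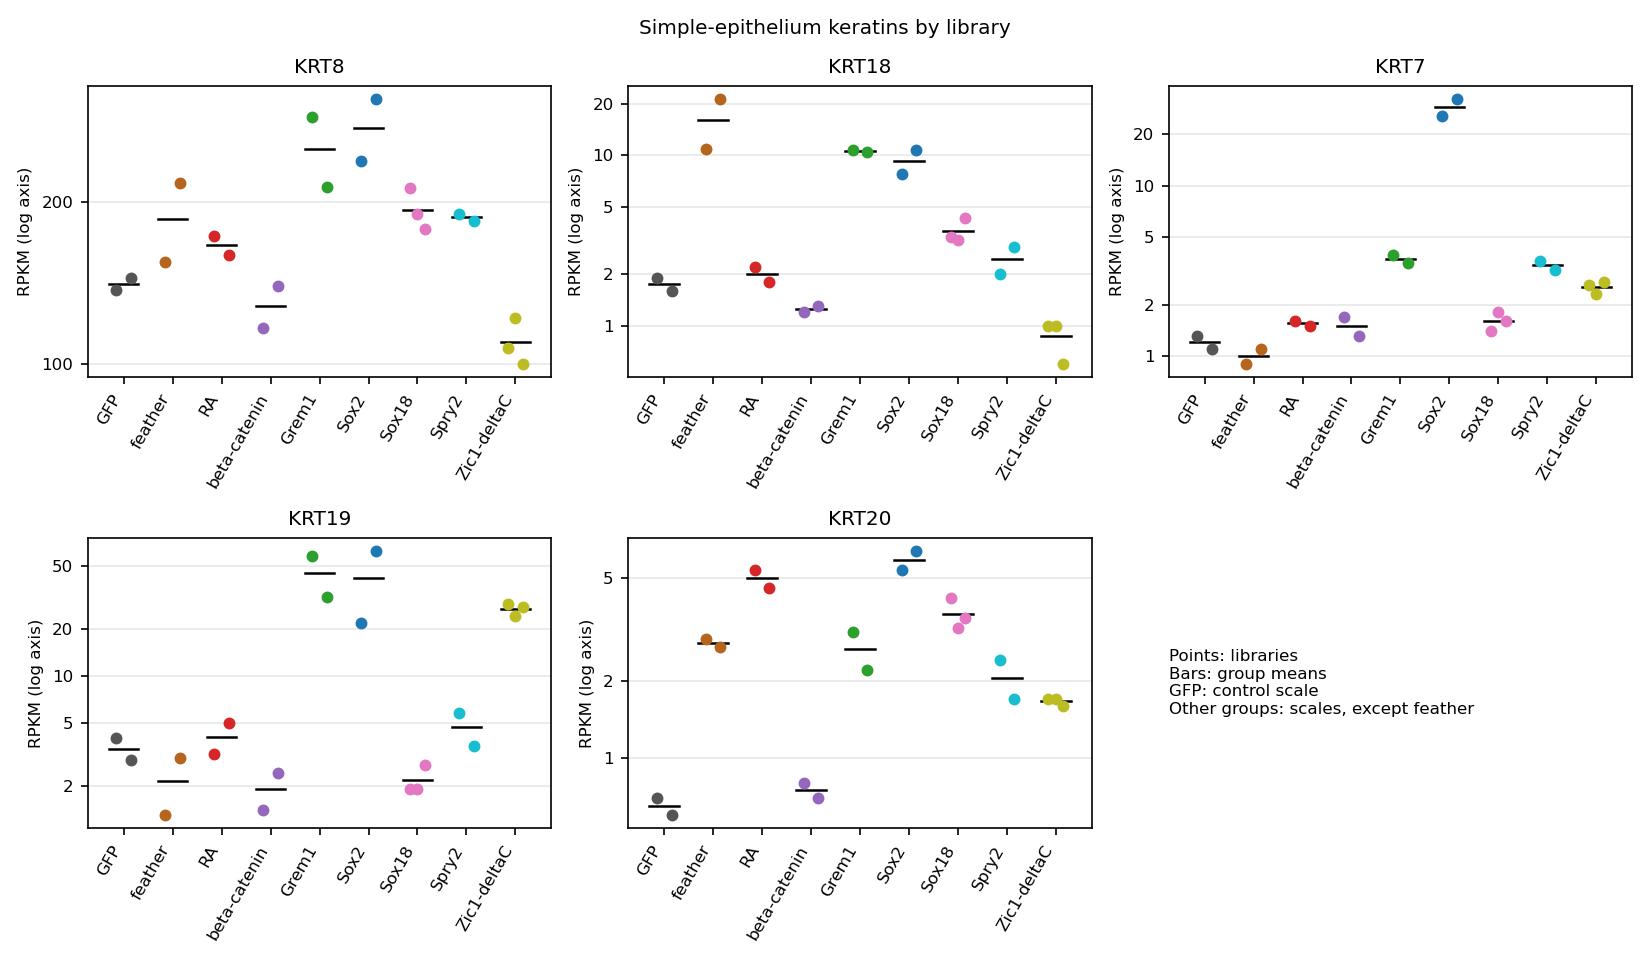
RPKM of KRT8, KRT18, KRT7, KRT19 and KRT20 in each of the 20 libraries (points) with group means (bars), on log axes that differ between panels. KRT7 stands high in the Sox2 libraries, KRT19 in the Grem1, Sox2 and Zic1-deltaC libraries, and KRT18 in the feather, Grem1 and Sox2 libraries.

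Each group was compared with GFP scale, the control that the series names, by limma on log2(RPKM + 1) over all 11863 genes that had at least 1 RPKM in at least 2 libraries. A gene is said to have risen or fallen where its p, adjusted by Benjamini-Hochberg over these genes, was below 0.05. With Sox2 all 5 genes rose, where 58.9% of all genes were called, 48.5% higher and 10.4% lower. With Grem1 all 5 rose as well, where 31.4% of all genes were called, 13.2% higher and 18.2% lower. The median log2 change of the 5 was 2.06 with Sox2 and 1.14 with Grem1, beside 0.28 and -0.05 over all genes. The most abundant classes of beta-keratins were low in the same Sox2 libraries, with claw keratins at 451.5 and 655.6 RPKM, scale keratins at 1069.2 and 3636.7 and feather keratins at 3621.7 and 6271.2 in sum, each below both GFP libraries, while feather-like keratins summed to 404.4 and 677.9 RPKM, above the 10.8 and 16.3 of GFP scale; the part of this in the rises was not tested. In whole tissue, fewer cells of a type and less RNA per cell cannot be told apart.

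In the other groups fewer of the 5 moved. In feather 3 rose, where 88.3% of all genes were called, 9.68% higher and 78.6% lower. With Sox18 3 rose, where 53.6% were called, 12.3% higher and 41.3% lower, and with Zic1-deltaC 3, where 24.7% were called, 14.8% higher and 9.9% lower. With Spry2 2 rose, where 25.3% were called, 17.9% higher and 7.41% lower. With RA 1 rose, where 60.5% were called, 8.34% higher and 52.2% lower. With beta-catenin 0 of the 5 passed limma's test, where 23.2% of all genes did, 7.97% higher and 15.2% lower, and 0 had an unadjusted p below 0.05. As deposited 0 of the 5 fell by limma's test in any group, while 2 values, both with Zic1-deltaC, were below 0 with an unadjusted p under 0.05.

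The median log2 change of the 5 was 0.38 in feather, 0.21 with RA, -0.14 with beta-catenin, 0.45 with Sox18, 0.41 with Spry2 and 0.68 with Zic1-deltaC. After scaling it was 1.66 in feather, 0.48 with RA, -0.04 with beta-catenin, 1.12 with Grem1, 1.71 with Sox2, 0.68 with Sox18, 0.29 with Spry2 and 0.62 with Zic1-deltaC. After median-ratio scaling the numbers of genes that rose were 5 with Sox2, 5 with Grem1, 4 in feather, 4 with Sox18, 3 with RA, 3 with Zic1-deltaC, 2 with Spry2 and 0 with beta-catenin, and 2 fell with Zic1-deltaC. Of all genes, 39.3% were then called in either direction with Sox2, 35.9% with Grem1, 73.3% in feather and 49.1% with Sox18. The share was 36.6% with RA, 28.5% with Zic1-deltaC, 25.6% with Spry2 and 26.7% with beta-catenin. Among the genes called, between 45.6% (Sox2) and 54.1% (RA) were higher. Of the 22 rises as deposited, 20 kept their call without GFP replicate 1 and 19 without GFP replicate 2; all 8 comparisons share these 2 control libraries.

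**Figure D2:**
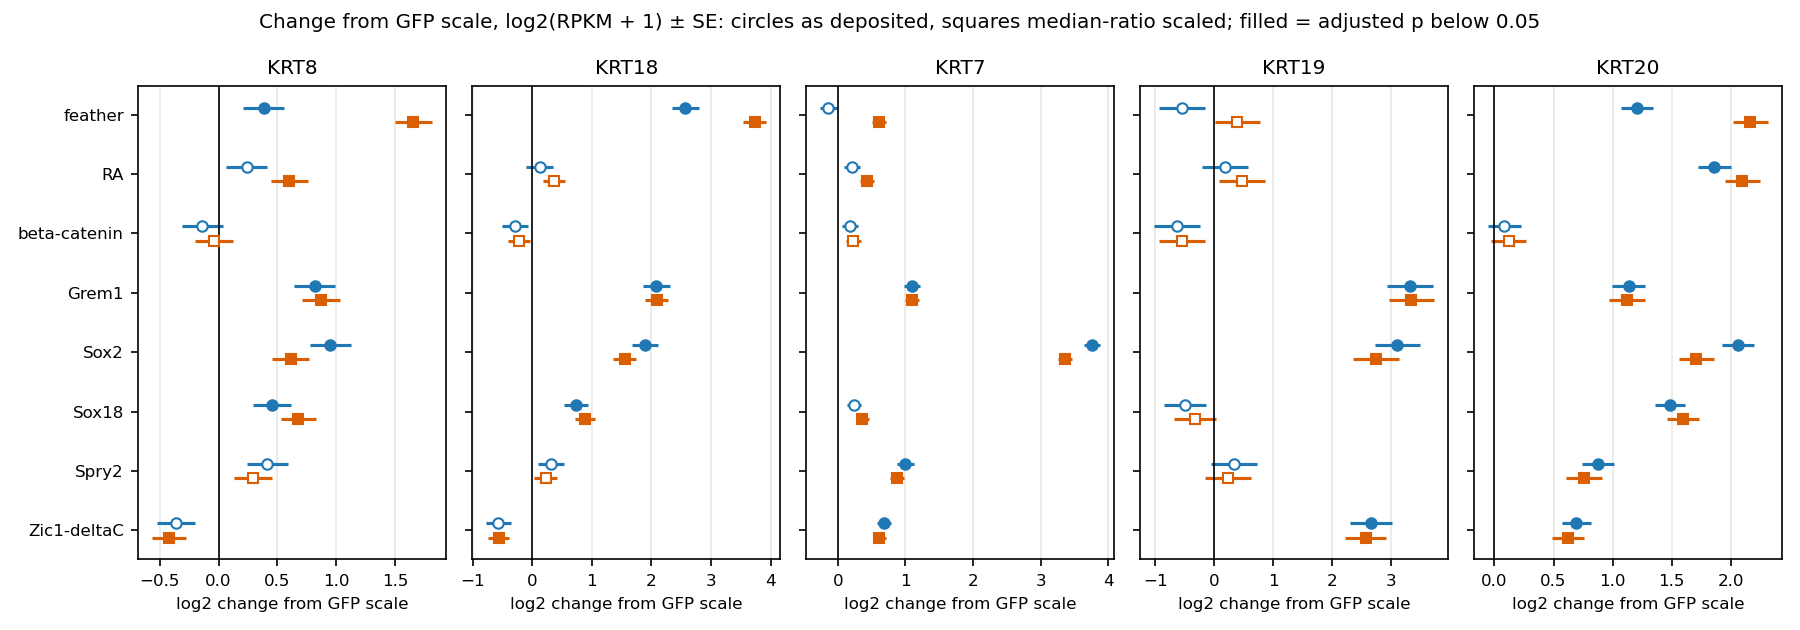
Change from GFP scale in log2(RPKM + 1) with its standard error, for each of the 5 genes and 8 groups, as deposited (circles) and median-ratio scaled (squares); filled symbols have an adjusted p below 0.05. The squares lie to the right of the circles in feather and RA scales, and to the left in Sox2 scales.

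KRT8, the type II chain of the simple pair, was present at over 99 RPKM in all libraries. GFP scales had 137.1 and 144.4 RPKM, feather 154.9 and 217.6, RA scales 173.1 and 159.2, and beta-catenin scales 116.7 and 139.8. Grem1 scales had 289.0 and 213.2 RPKM, Sox2 scales 238.9 and 311.4, Sox18 scales 212.9, 190.0 and 178.3, Spry2 scales 190.3 and 184.9, and Zic1-deltaC scales 106.8, 121.8 and 100. The Sox2 and Grem1 libraries lay between 213.2 and 311.4 RPKM, a range that 1 feather library reached, and all 3 Zic1-deltaC libraries lay below both GFP libraries. As deposited that Zic1-deltaC difference (-0.36, limma adjusted p = 0.107) did not pass the test. The share of all genes parted in this way was not counted.

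Against GFP scale, KRT8 rose with Sox2 by 0.95 on the log2 scale (SE 0.17, limma adjusted p = 0.00028) and with Grem1 by 0.81 (SE 0.17, limma adjusted p = 0.00217). These 2 calls held under every alternative tried. With Sox18 it rose by 0.45 (limma adjusted p = 0.0237), a call lost without GFP replicate 1 (0.42, adjusted p = 0.117), without GFP replicate 2 (0.49, adjusted p = 0.0681) and without Sox18 replicate 1 (0.39, adjusted p = 0.0804). In feather it rose by 0.38 (limma adjusted p = 0.0486), and this value depended on scaling and on 1 library; the call was lost in 12 of the 20 fits that left out a library. Without feather replicate 2 it was 0.14 (adjusted p = 0.495), and after median-ratio scaling it was 1.66 (adjusted p = 1.38e-07). Scaling also brought 2 further calls, a rise with RA of 0.60 (adjusted p = 0.00787) and a fall with Zic1-deltaC of 0.42 on the log2 scale (adjusted p = 0.0421). In the order of group means, Sox2, Grem1, Sox18, Spry2, feather, RA, GFP, beta-catenin and Zic1-deltaC, 0 of the 8 neighbouring pairs differed by limma's test as deposited, and 1, Grem1 and Sox18, had an unadjusted p below 0.05. Between 23.2% and 90.4% of all genes were called over these 8 pairs as deposited. Sox2 scale exceeded 7 of the 8 other groups as deposited, Grem1 being the exception. It exceeded 3 after median-ratio scaling and all 8 after quantile scaling. As deposited, these 8 comparisons called between 34.2% and 82.6% of all genes higher with Sox2. After median-ratio scaling, the feather mean was the highest, 400.2 ± 44.5 RPKM (SD, n = 2), against 126.0 ± 5.71 in GFP scale (n = 2), and 4 of the 8 neighbouring pairs differed.

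KRT18, the type I partner of KRT8, was high in 3 groups. Feather had 10.9 and 21.3 RPKM, Grem1 scales 10.8 and 10.5, and Sox2 scales 7.8 and 10.8. The other groups had 4.3 RPKM or less: GFP scales 1.9 and 1.6, RA scales 2.2 and 1.8, beta-catenin scales 1.2 and 1.3, Sox18 scales 3.3, 3.2 and 4.3, Spry2 scales 2.0 and 2.9, and Zic1-deltaC scales 1.0, 1.0 and 0.6. No library of the 3 high groups overlapped any library of the other 6, and the 3 Zic1-deltaC values were the lowest of all. How many of all genes part the groups in this way was not counted.

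Each of the 3 high groups exceeded each of the 6 others in limma's test, in 18 of 18 pairs, with log2 differences between 1.16 and 3.13 and a largest adjusted p of 8.65e-05. The 3 were picked as the highest in these same values, so this count describes the split and is no separate support. Over these 18 comparisons between 7.52% and 71.8% of all genes were called in that direction; against RA scale, for example, 54.8% were called for Grem1, 45.3% higher. The same 18 were called after median-ratio and quantile scaling. Against GFP scale, KRT18 rose in feather by 2.57 (SE 0.22, limma adjusted p = 1.1e-08), the mean of 16.1 ± 7.35 RPKM being 9.20-fold above 1.75 ± 0.212 in GFP scale (SD, n = 2 each). It rose with Grem1 by 2.08 (adjusted p = 4.22e-06), with Sox2 by 1.89 (adjusted p = 4.12e-06) and with Sox18 by 0.74 (adjusted p = 0.00646; 0.66 and 0.0569 without GFP replicate 2). After scaling the feather difference was 3.74 and feather lay above Grem1 scale too (log2 difference 1.65, adjusted p = 1.24e-06), which as deposited it did not in limma's test (0.48, 95% interval 0.01 to 0.96, adjusted p = 0.0526). The value with Zic1-deltaC was -0.56 (adjusted p = 0.0541), and it passed the threshold as a fall with scaling (-0.56, adjusted p = 0.0257). The 3 high groups are all among the 5 groups that were low in the second set of 25 dividing genes. Of the 18 pairs above, 6 lie within those 5 groups and set the 3 above Sox18 and Zic1-deltaC scales. Another 2 of the 18 lie within the 3 groups that share the first set, and set Grem1 above beta-catenin and Spry2 scales. Whether either division bears on KRT18 was not tested.

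The levels of KRT8 and KRT18 were the most alike of any pair among the 5 genes. Pearson's r of log2(RPKM + 1) over the 20 libraries was 0.79 as deposited and 0.93 after scaling, as a description, since the points share library scaling and fall into 9 groups. For each of both genes the other was the keratin with the highest r of 162 compared. The levels themselves were far from equal. KRT8 had 81.2 ± 12.8 times the RPKM of KRT18 in GFP scale (SD, n = 2) and 132 ± 31.2 times in Zic1-deltaC scale (n = 3). In feather it had 12.2 ± 2.82 times (n = 2), with Grem1 23.5 ± 4.56 times (n = 2) and with Sox2 29.7 ± 1.27 times (n = 2). This ratio is taken within a library and does not change with library scaling. In feather, KRT18 therefore stood higher relative to KRT8, with 7.04 and 9.79 RPKM per 100 RPKM of KRT8, than in any scale library, where the highest value was 4.92.

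**Figure D3:**
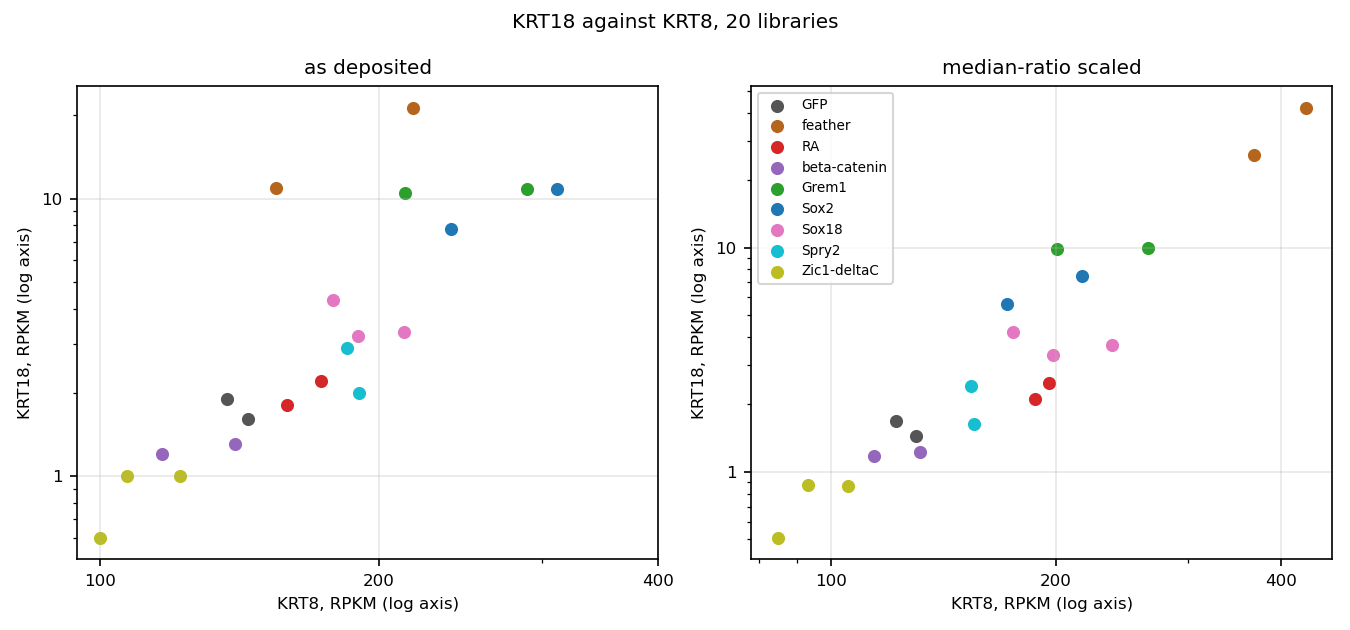
KRT18 against KRT8 in 20 libraries, on log axes, as deposited (left) and median-ratio scaled (right). As deposited the 2 feather libraries lie above the trend of the scale libraries, and after scaling they lie at the upper end of both axes.

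KRT7, a type II chain of ducts and glands in mammals, was high with Sox2. The Sox2 scales had 25.6 and 32.2 RPKM, and the highest value in any other library was 3.9, in Grem1 scale. GFP scales had 1.3 and 1.1 RPKM, feather 0.9 and 1.1, RA scales 1.6 and 1.5, beta-catenin scales 1.7 and 1.3, and Sox18 scales 1.4, 1.8 and 1.6. Grem1 scales had 3.9 and 3.5 RPKM, Spry2 scales 3.6 and 3.2, and Zic1-deltaC scales 2.6, 2.3 and 2.7. These last 3 groups thus lay between the Sox2 libraries and the rest, and no library of them overlapped GFP scale. The RA and Sox18 libraries, at lower levels, did not overlap GFP scale either. The share of all genes without such overlap was not counted.

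The Sox2 mean of 28.9 ± 4.67 RPKM was 24.1-fold above the GFP mean of 1.2 ± 0.141 (SD, n = 2 each), and 19.0-fold after scaling. The log2 change was 3.76 (SE 0.12, limma adjusted p = 3.83e-13). Sox2 scale exceeded each of the 8 other groups, by log2 differences of 2.66 to 3.90 with a largest adjusted p of 5.95e-11, in comparisons that called between 34.2% and 82.6% of all genes higher with Sox2. All 8 calls were also made after median-ratio and after quantile scaling. KRT7 rose with Grem1 by 1.10 (adjusted p = 5.63e-06), with Spry2 by 1.0 (adjusted p = 1.68e-05) and with Zic1-deltaC by 0.68 (adjusted p = 0.000297). Grem1 and Spry2 scales share the first set of 25 dividing genes with beta-catenin scale, and both exceeded it, by 0.91 and 0.82. Against beta-catenin scale 15% of all genes were called higher with Grem1 and 30.6% with Spry2. Whether this division bears on KRT7 was not tested. With Sox18, RA and beta-catenin the changes were 0.24 (adjusted p = 0.0771), 0.21 (adjusted p = 0.133) and 0.18 (adjusted p = 0.296). The feather value was -0.14 as deposited (adjusted p = 0.287) and 0.61 after scaling (adjusted p = 9.12e-05), so its sign depended on scaling. Of the 8 neighbouring pairs in the order Sox2, Grem1, Spry2, Zic1-deltaC, Sox18, RA, beta-catenin, GFP and feather, 3 differed: Sox2 from Grem1, Spry2 from Zic1-deltaC and Zic1-deltaC from Sox18. Over these 8 pairs between 23.2% and 88.3% of all genes were called.

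Per 100 RPKM of KRT8, KRT7 reached 10.7 and 10.3 in the Sox2 libraries and between 0.506 and 2.70 in all others. KRT7 therefore stood higher against KRT8 with Sox2 as well, a measure that library scaling leaves as it is. The keratins most like KRT7 over the 20 libraries, by r, were the keratinocyte beta-keratin Chr25_Ktn14 (0.90) and the alpha-keratins KRT78 (0.90), KRT16A (0.77), KRT12 (0.74) and KRT17 (0.73). Without the 2 Sox2 libraries the r with Chr25_Ktn14 was -0.06, that with KRT78 0.75, that with KRT16A 0.47, that with KRT12 0.17 and that with KRT17 0.28. Chr25_Ktn14 was at 71.4 and 72.1 RPKM in the Sox2 libraries and at most 2.1 in any other. KRT78, a type II keratin, was at 41.3 and 56.4 RPKM with Sox2 and between 19.7 and 22.8 with Grem1, against 4.8 and 6.5 in GFP scale. The lowest r values were those with the feather keratins Chr27_FK7 (-0.97), Chr27_FK19 (-0.96) and Chr27_FK9 (-0.96), which were -0.76, -0.74 and -0.76 without those libraries. Chr27_FK7 was at 0 and 0.4 RPKM with Sox2 and at least 52.9 in every other library.

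KRT19, a type I chain, fell into a low and a high set of groups. The high values were 58.2 and 31.9 RPKM with Grem1, 21.7 and 62.6 with Sox2, and 28.8, 24.2 and 27.5 with Zic1-deltaC. The low values were 4.0 and 2.9 RPKM in GFP scale, 1.3 and 3.0 in feather, 3.2 and 5.0 with RA, 1.4 and 2.4 with beta-catenin, 1.9, 1.9 and 2.7 with Sox18, and 5.8 and 3.6 with Spry2. The lowest of the 7 high libraries, at 21.7, stood well above the highest of the 13 low ones, at 5.8. The share of all genes with such a gap was not counted. Replicates of Grem1 and Sox2 lay far apart, those of Zic1-deltaC close together.

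Against GFP scale KRT19 rose with Grem1 by 3.32 (SE 0.39, limma adjusted p = 9.93e-06), 13.1-fold in means of 45.0 ± 18.6 and 3.45 ± 0.778 RPKM (SD, n = 2 each). It rose with Sox2 by 3.11 (SE 0.39, adjusted p = 7.13e-06), and this value moved to 3.85 without Sox2 replicate 1 and to 2.36 without Sox2 replicate 2, with the call kept. With Zic1-deltaC it rose by 2.65 (SE 0.35, adjusted p = 5.29e-05), to 26.8 ± 2.37 RPKM (SD, n = 3). The 3 groups exceeded each of the 6 others in 18 of 18 pairs, as deposited and after both scalings, with log2 differences between 2.31 and 3.95 as deposited. Between 7.52% and 82.6% of all genes were called in that direction in these comparisons. For KRT19 too, the 3 groups were picked as the highest in these same values. Of the 18 pairs, 6 lie within the groups low in the second set of dividing genes and set the 3 above feather and Sox18 scales. Another 2 set Grem1 above beta-catenin and Spry2 scales, which share the first set with it. Whether either division bears on KRT19 was not tested. Among the low groups none of the 5 values against GFP scale passed limma's test; they lay between -0.63 and 0.34, and the feather value changed from -0.54 (adjusted p = 0.194) to 0.39 after scaling (adjusted p = 0.367). KRT19 and KRT18 thus shared the rise with Grem1 and Sox2 and differed elsewhere: the 2 feather libraries were high in KRT18 and low in KRT19, and the 3 Zic1-deltaC libraries the reverse.

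Per 100 RPKM of KRT8, KRT19 reached between 19.9 and 27.5 with Zic1-deltaC, 20.1 and 14.96 with Grem1, and 9.08 and 20.1 with Sox2, against 0.839 to 3.14 elsewhere. The keratin most like KRT19 was KRT15 (r = 0.77 over 20 libraries and 0.77 without the Sox2 libraries), a type I keratin of the basal epidermis in mammals, followed by KRT7 (0.67). KRT15 was at a high level in all scales and lowest in feather, with 1035 ± 93.5 RPKM with Grem1 (n = 2), 876 ± 50.8 with Zic1-deltaC (n = 3), 728 ± 65.3 in GFP scale (n = 2) and 145 ± 30.1 in feather (n = 2). It rose with Grem1 by 0.51 (limma adjusted p = 0.0297, and 0.56 after scaling), and its values with Zic1-deltaC (0.27, adjusted p = 0.219) and Sox2 (0.08, adjusted p = 0.695; -0.26 after scaling) did not pass the test. KRT15 fell in feather (-2.33, limma adjusted p = 1.03e-09), with beta-catenin (-1.01, adjusted p = 0.000477), Sox18 (-0.88, adjusted p = 0.000171) and RA (-0.65, adjusted p = 0.00371). After scaling the RA value (-0.29, adjusted p = 0.101) no longer passed. The Spry2 value passed as a fall only after scaling (-0.57, adjusted p = 0.00541).

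KRT20, a type I chain of gut and Merkel cells in mammals, was at its lowest in GFP and beta-catenin scales. GFP scales had 0.7 and 0.6 RPKM and beta-catenin scales 0.8 and 0.7. Sox2 scales had 5.4 and 6.4 RPKM, RA scales 5.4 and 4.6, Sox18 scales 4.2, 3.2 and 3.5, and feather 2.9 and 2.7. Grem1 scales had 3.1 and 2.2 RPKM, Spry2 scales 2.4 and 1.7, and Zic1-deltaC scales 1.7, 1.7 and 1.6. No library of these 7 groups overlapped the GFP and beta-catenin libraries, although all levels were low and the table gives 1 decimal. How common this is among all genes was not counted.

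KRT20 rose against GFP scale in 7 of 8 groups, and all 7 calls held under every alternative that gave a value. The log2 change was 2.06 with Sox2 (SE 0.14, limma adjusted p = 5.54e-09), 1.86 with RA (SE 0.14, adjusted p = 7.86e-08), 1.48 with Sox18 (adjusted p = 1.41e-07) and 1.2 in feather (adjusted p = 2.98e-07). It was 1.14 with Grem1 (adjusted p = 1.42e-05), 0.88 with Spry2 (adjusted p = 0.000203) and 0.69 with Zic1-deltaC (adjusted p = 0.000816), and 0.08 with beta-catenin (adjusted p = 0.692, 95% interval -0.21 to 0.38). These log2 values understate the ratio of low levels: the Sox2 mean of 5.90 ± 0.707 RPKM was 9.08-fold the GFP mean of 0.650 ± 0.0707 (SD, n = 2 each), and a pseudocount of 0.1 gave 3.00 with Sox2 and 2.76 with RA. GFP and beta-catenin scales lay below each of the 7 other groups in 14 of 14 pairs under all 3 scalings, in comparisons that called between 8.34% and 56.6% of all genes in that direction. For beta-catenin against RA scale, 47.1% of all genes were called, 38.5% higher and 8.59% lower. The groups set at either end of the order were picked by these same values. The top of the order depended on scaling. As deposited Sox2 and RA scales exceeded each of the other 7 groups in 14 of 14 pairs, where between 7.97% and 82.6% of all genes were called in that direction. After scaling this held in 11, and feather (6.13 ± 1.09 RPKM) and RA scale (5.76 ± 0.489) had the highest means, above Sox2 scale (4.17 ± 0.405; n = 2 each).

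KRT20 was the 1 gene of the 5 that rose with RA as deposited, and per 100 RPKM of KRT8 it was highest there, at 3.12 and 2.89. It stood at 2.26 and 2.06 with Sox2, between 1.68 and 1.97 with Sox18, and at 0.511 and 0.416 in GFP scale. Its closest keratins were KRT16B (r = 0.69) and KRT8 (0.67, and 0.54 without the Sox2 libraries). KRT16B was at 1.1 and 1.4 RPKM in GFP scale and rose in all 8 groups, to between 114.4 and 163.0 RPKM in feather and between 56.6 and 76.0 with Sox2. In beta-catenin scale KRT16B was at 17.7 and 42.0 RPKM, while KRT20 did not pass the test there. The lowest r values of KRT20 were those with the scale keratins Chr25_scale4 (-0.69), Chr25_scale8 (-0.68) and Chr25_scale18 (-0.66). After scaling these were -0.38, -0.42 and -0.78, and the last alone remained among the 3 lowest.

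**Figure D4:**
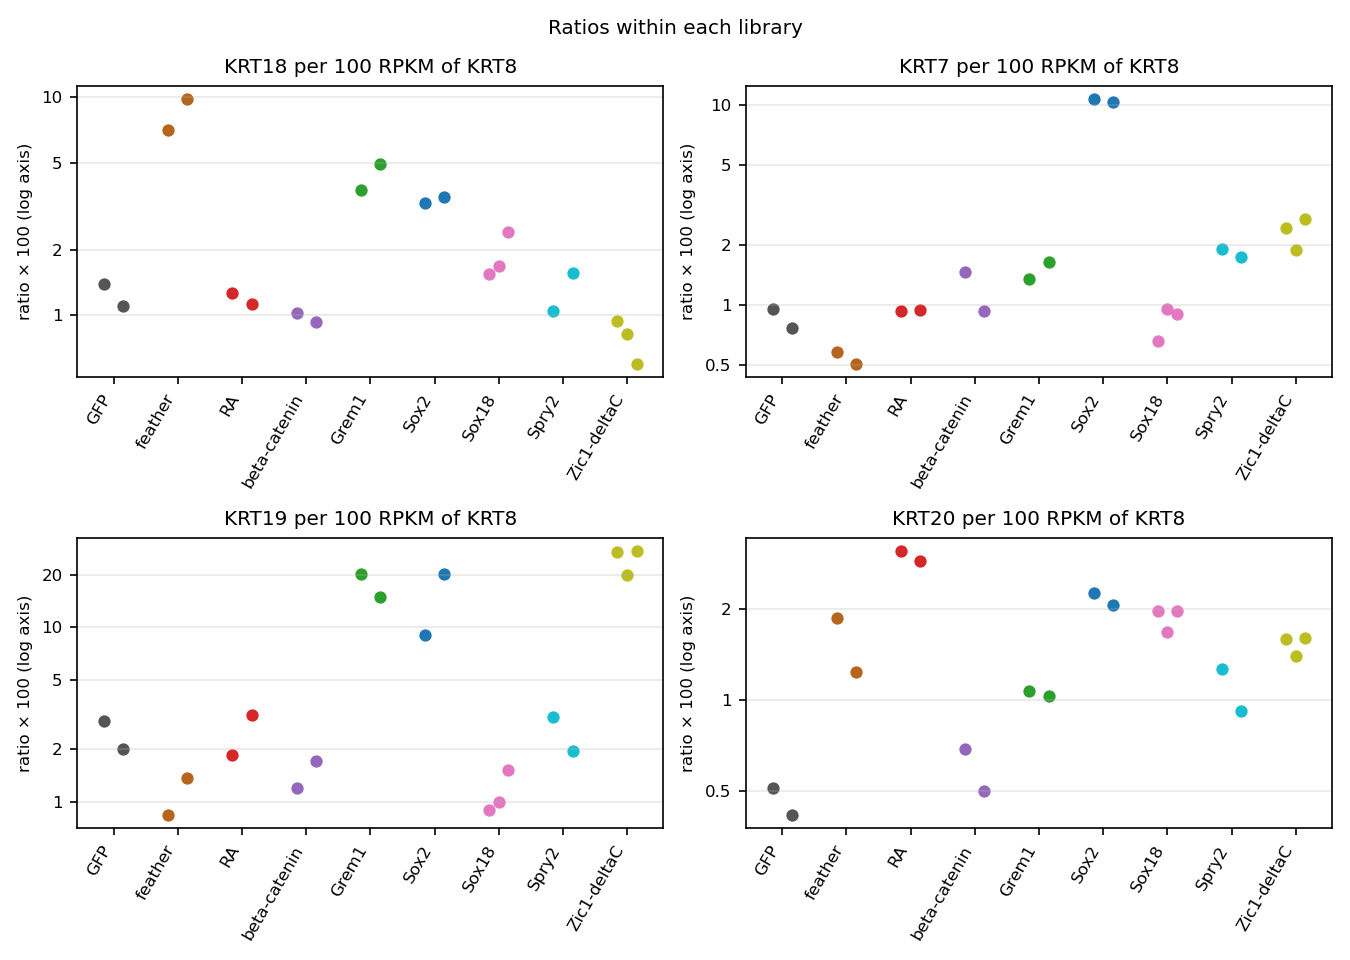
Level of KRT18, KRT7, KRT19 and KRT20 per 100 RPKM of KRT8 in each of the 20 libraries, on log axes that differ between panels; each point is 1 library. Ratios do not change with library scaling. By group mean KRT18 is highest in feather, KRT7 in Sox2 scales, KRT19 in Zic1-deltaC scales and KRT20 in RA scales. The KRT19 ratios of Zic1-deltaC libraries overlap those of Grem1 and Sox2.

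Against normal feather, the other reference that the series names, the outcome rested largely on scaling. As deposited, 79.8% of all genes were called with RA (71.7% higher, 8.14% lower), 87.1% with beta-catenin (77.5% and 9.59%), 87.7% with Grem1 (78.5% and 9.17%) and 91.3% with Sox2 (82.6% and 8.69%). With Sox18 84.6% were called (75.9% and 8.7%), with Spry2 90.4% (81.8% and 8.57%) and with Zic1-deltaC 88.9% (79.2% and 9.77%). After scaling, from 65.8% with RA to 77.1% with Zic1-deltaC were called, and between 47.9% and 50.7% of the called genes were higher. KRT18 fell in 6 of 7 manipulated groups as deposited and in 7 of 7 after scaling. KRT19 rose in 4 of 7 as deposited (Grem1, Sox2, Zic1-deltaC and, by 0.88, Spry2) and in 3 of 7 after scaling, where 1 also fell. KRT7 rose in 7 of 7 as deposited and in 3 of 7 after scaling, with 2 falls then. KRT20 rose in 3 and fell in 3 as deposited, and fell in 6 with 0 rises after scaling. KRT8 rose in 2 and fell in 2 as deposited, and fell in all 7 after scaling. The Sox2 rise of KRT7 over feather (3.90 as deposited, 2.75 scaled) and the Grem1, Sox2 and Zic1-deltaC rises of KRT19 (3.86, 3.65 and 3.19 as deposited, 2.95, 2.35 and 2.17 scaled) were called both ways.

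Together the 5 genes were a small part of alpha-keratin RNA in scales and a larger part in feather. They made up 0.964% and 1.001% of the summed alpha-keratin RPKM in GFP scale, 4.90% and 6.13% in feather, 2.80% and 4.19% with Sox2, and between 0.792% and 2.06% in the other libraries. The summed level of the 5 was 170.9 and 245.7 RPKM in feather against 145.0 and 150.6 in GFP scale. All alpha-keratins together made up 3.34% and 3.60% of the summed RPKM in GFP scale and 0.465% and 0.586% in feather. The summed RPKM itself differed, at 433968 and 434632 in GFP scale and 750919 and 684129 in feather.

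The other 28 alpha-keratins, 12 of type I, 15 of type II and KRT222, did not move as one. In feather 6 rose and 17 fell (12 and 13 after scaling). With Grem1 14 rose and 4 fell (14 and 3 scaled), with Sox2 11 and 11 (11 and 12 scaled), and with Spry2 11 and 6 (9 and 10 scaled, so the balance turned). With RA 9 rose and 8 fell (13 and 5 scaled), with Sox18 9 and 12 (14 and 11 scaled, the balance turning here too), with Zic1-deltaC 8 and 7 (7 and 7 scaled; 5 rose without GFP replicate 2), and with beta-catenin 7 and 6 (9 and 6 scaled; 3 fell without GFP replicate 1 or without beta-catenin replicate 2). Their median log2 change was -0.86 in feather, 0.45 with Grem1 and between -0.21 and 0.14 in the other groups. After scaling it was 0.05 in feather, 0.39 with RA, 0.51 with Grem1, -0.41 with Sox2, 0.32 with Sox18 and between -0.05 and 0.004 in the other 3; the deposited feather value of -0.86 lay near the median of all genes there.

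The layer keratins of stratified epidermis, KRT5, KRT14, KRT15, KRT1 and KRT10, serve as reference points. The 11 reference keratins also include KRT4, KRT13A, KRT13B, KRT13C, KRT75A and KRT75B, which are not counted as epidermal layer keratins here. KRT5 and KRT14, the basal pair, stood at 1254 ± 101 and 1105 ± 117 RPKM in GFP scale (SD, n = 2), many times the level of KRT8 there, and fell in feather by 2.98 and 1.73 on the log2 scale (limma adjusted p = 6.17e-11 and 2.8e-08), and by 1.71 and 0.46 after scaling. The suprabasal KRT1 and KRT10 were at 0.550 ± 0.0707 and 18.8 ± 4.45 RPKM in feather (n = 2), against 148 ± 21.6 and 2444 ± 321 in GFP scale (n = 2). In feather, KRT8 at 186 ± 44.3 RPKM (n = 2) was thus at about the level of KRT5, 161 ± 47.9, above KRT1 and KRT10 and below KRT14, 337 ± 90.7. With Sox2, KRT5 fell by 0.88 (adjusted p = 0.000398), KRT14 by 0.77 (adjusted p = 0.000938) and KRT10 by 1.76 (adjusted p = 7.98e-06) on the log2 scale, and KRT1 did not pass the test (-0.28, adjusted p = 0.377). Of all 11 reference keratins, 4 fell with Sox2 and 3 rose, KRT4 by 1.10, KRT75A by 1.14 and KRT13C by 2.17, with the same numbers after scaling (0.76, 0.80 and 1.83 for these 3). KRT13C also rose in every other group, and by more than with Sox2, up to 4.31 with Sox18. With Grem1, KRT14 fell by 0.81 (adjusted p = 0.00134), KRT1 rose by 1.38 (adjusted p = 0.00111), and the values of KRT5 (0.14, adjusted p = 0.579) and KRT10 (0.51, adjusted p = 0.0903) did not pass the test. Of the 11 reference keratins 5 rose with Grem1 and 2 fell, also after scaling. The other rises were those of KRT13C (3.53), KRT13A (0.81), KRT4 (0.62) and KRT15 (0.51), and the other fall that of KRT13B (-1.39). The keratin least like KRT18 after scaling was KRT6A (r = -0.90), a keratin of activated epidermis in mammals. KRT6A was at 2709.7 and 2769.2 RPKM in GFP scale, 56.1 and 71.4 in feather, and 793.9 and 1103.2 with Sox2.

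Over all 11862 other genes tested, r of at least 0.9 was reached as deposited by 24 with KRT7, 2 with KRT8, 2 with KRT18, 1 with KRT19 and 1 with KRT20. Of these, 1 was a keratin (Chr25_Ktn14, with KRT7), and the others carry identifiers without names in the files. The highest r as deposited was 0.98, for KRT18. These counts depended on scaling. After median-ratio scaling they were 9 with KRT7, 30 with KRT8, 15 with KRT18, 0 with KRT19 and 2 with KRT20. Merkel cells were the 1 other cell type for which the files name any marker, 3 of 6, and these 3 are KRT8, KRT18 and KRT20 themselves. Lists for dermis, endothelium, blood, muscle, melanocytes and nerve matched 0 names, so other cell types were not assessed and their part in the results was not tested.

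In the RefSeq annotation of the chicken assembly GRCg7b, used for names and neighbours only, KRT7, KRT8 and KRT18 are listed under these symbols. KRT8 and KRT18 are neighbouring genes there, and KRT7 lies next to KRT80. KRT19 is given as a synonym of KRT24 and KRT20 as a synonym of KRT40, so the mammalian roles above may not carry over to the chicken genes that the table calls KRT19 and KRT20. How reads shared between keratin genes were assigned is not given in the sources used here, and the library kit does not mark strand.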

How the data were processed

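Per the labels' protocols, libraries came from Trizol-extracted RNA by the TruSeq RNA V2 kit of Illumina. Reads were aligned with TopHat2 to galGal4 and quantified in Partek, per the submitters' processing notes; no source used here gives their versions or settings. The authors deposited RPKM to 1 decimal for 16290 genes, and the 180 keratins have identical values in both deposited tables. RPKM is not a count and read depth is unknown, so no count model was used.

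log2(RPKM + 1) of all 20 libraries was fitted by group (9 groups) with limma's trend setting (residual df 11, prior df 5.35), with all 36 group pairs as contrasts and p-values adjusted over 11863 genes within each. Median-ratio factors came from 11130 genes above 0 in every library. The members and gene lists were chosen with earlier results of these data known. Besides the members, keratins were named by the 5 highest and 3 lowest Pearson r to a member, of which the text gives some, and 11 other alpha-keratins were reference points. The code was tested on simulated data with planted changes. Replicate numbers were not used as pairs. Alternatives were 9 other settings and leaving out each of 20 libraries. Counts of pairs under these settings and the r without Sox2 libraries were added after seeing the data, as was the look at dividing genes. The groups set above or below others in counts of pairs, Sox2 for KRT7 and KRT8 included, were picked from these same values. Software was limma 3.58.1 (R 4.3.3) and, in Python 3.11.15, pandas 2.3.3, numpy 2.4.6 and matplotlib 3.10.9.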

Additional observations from a re-analysis of the deposited data

How the results depend on the processing

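Of 344 values of the members against GFP scale under alternatives other than leaving out a library, 322 kept their direction and side of the threshold; of 800 with 1 library left out, 778 did. Scaling was the choice with most effect. The feather value of KRT7 turned from -0.14 to 0.61 with median-ratio and 0.83 with quantile scaling, and that of KRT19 from -0.54 to 0.39 and 0.49. Called with these scalings but not as deposited was KRT7 in feather (0.61, 0.83), with RA (0.43, 0.47) and with Sox18 (0.36, 0.42). The same held for KRT8 with RA (0.60, median-ratio), Spry2 (0.59, quantile) and Zic1-deltaC (-0.42, median-ratio), and for KRT18 with Zic1-deltaC (-0.56, -0.52). KRT8 with Sox18 was lost with quantile scaling (0.28). A pseudocount of 0.1 called KRT7 with Sox18 (0.38) and KRT18 with Zic1-deltaC (-0.96). Fits of only the 2 groups called KRT8 with Spry2 (0.41) and Zic1-deltaC (-0.36) and KRT18 with Zic1-deltaC (-0.56). KRT8 in feather (0.38) was lost with no filter, only the 2 groups or a replicate block (adjusted p = 0.0836, 0.154 and 0.0502).

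Leaving out 1 library gave ranges of 0.14 to 0.63 for KRT8 in feather, 0.39 to 0.51 for KRT8 and 0.63 to 0.82 for KRT18 with Sox18, 0.17 to 0.31 for KRT7 with Sox18, -0.64 to -0.46 for KRT18 with Zic1-deltaC, and -0.072 to 0.44 for KRT19 with RA, which turned without RA replicate 2. The cause of these changes was not tested.

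Counts of groups higher than feather became 3 and 2 for KRT7 (median-ratio and quantile), 0 and 1 for KRT8, and 0 and 0 for KRT20; counts lower became 2 and 3 for KRT7, 7 and 4 for KRT8, 1 and 1 for KRT19, and 6 and 6 for KRT20. KRT8 higher than feather became 1 with no filter and 0 with only the 2 groups, and lower 1 with only the 2 groups. Leaving out a library gave 4 to 7 for KRT7 higher (4 without feather replicate 1), 0 to 2 for KRT8 higher and 1 to 2 for KRT8 lower. Sox2 exceeded 7 other groups in KRT8, 3 after median-ratio scaling and 8 after quantile scaling. The count was lower with Sox2 replicate 2 left out. Neighbours that differed became 4 and 3 for KRT8, 4 and 4 for KRT18 and 2 and 2 for KRT19 with median-ratio and quantile scaling, 1 for KRT7 with quantile scaling and 1 for KRT20 with only the 2 groups; with a library left out they were 0 to 1 for KRT8, 1 to 3 for KRT18, 1 to 2 for KRT19 and 1 to 3 for KRT20.

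Over 15 comparisons, genes called went from between 2748 and 10832 to between 1607 and 6730 with a filter at a mean of 5 RPKM, which tested 7167 genes and left out KRT7 and KRT20, whose means are lower. They went from 7182 to 4284 (median-ratio) and 4677 (quantile) with RA, from 6987 to 4590 (median-ratio) with Sox2, and with only the 2 groups from 2748 to 1234 with beta-catenin, 3724 to 2316 with Grem1 and 3001 to 1806 with Spry2. With a library left out the lowest counts were 1515 with beta-catenin (without GFP replicate 1), 2227 with Grem1 (without Grem1 replicate 1), 1600 with Spry2 (without Spry2 replicate 1) and 1271 with Zic1-deltaC (without GFP replicate 2; 2935 with all libraries). Same-numbered libraries did not deviate together (r between -0.28 and 0.21 over 73 pairs; 0 of 3 Sox18 libraries correlated best with their own number), and the replicate block moved counts of calls by factors of 0.819 to 1.01. In groups of 2 both replicates deviate from their mean by the same amount in opposite directions. Pairs of such groups therefore gave the same r for replicates 1 and 2, so the 73 are not independent. Of 120 values of r under alternatives, 40 moved. Unknown depth, 1 decimal and groups of 2 or 3 limit KRT7, KRT18 and KRT20 most, whose GFP levels are under 2 RPKM.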
